A study of Mus musculus with 2 samples.

Results

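Conventional dendritic cells were examined among immune cells (CD45+) sorted from tumours of MC38, a colon carcinoma line of mouse origin, implanted in C57BL/6 female mice and taken on day 14. One 10x 5′ single-cell library came from mice given vehicle and 1 from mice given LC427, a compound that the study ties to LRBA and CTLA4. How many animals each library pools was not given in the sources used here, and with 1 library per group no difference between treatments has a replicate check. A cell was called from a barcode with at least 1000 UMIs (unique transcript counts), at least 400 genes and at most 10% mitochondrial UMIs. It was gated as dendritic when at least 2 of 8 genes (Flt3, Plet1, H2-Ob, H2-Oa, Wdfy4, Xcr1, Clec9a and Cbfa2t3) had a UMI and none of 6 genes of plasmacytoid cells, mature dendritic cells, T cells and NK cells (Siglech, Fscn1, Cacnb3, Cd3d, Cd3e and Ncr1) had one. The gate held 141 of 5245 called cells in the vehicle library and 204 of 6328 in the LC427 library, 345 of 11573 in all. The cells were chosen by UMIs of these 14 genes, so levels of those genes are given as a description.

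Conventional dendritic cells take up antigen, carry it to lymph nodes and present it to T cells. The type 1 subset, which depends on Irf8 and Batf3, carries the chemokine receptor Xcr1 and the dead-cell receptor Clec9a and is known for cross-presentation to CD8 T cells. The type 2 subset, which carries Sirpa, Mgl2 and Cd209a and uses Irf4, is known for presentation to CD4 T cells. CTLA4 on T cells binds Cd80 and Cd86 on dendritic cells, and LRBA is known to protect CTLA4 from degradation in lysosomes.

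The gated share of called cells was 2.69% (95% exact Clopper-Pearson interval 2.27 to 3.16) with vehicle and 3.22% (2.80 to 3.69) with LC427. The ratio of the shares was 1.20, with an interval of 0.963 to 1.497 that covers counting error only. Depth differed: the median gated cell held 6063 UMIs with vehicle and 3426.5 with LC427, and a deeper cell can show more of the 8 genes. When every called cell was thinned to 1000 UMIs, 49 cells (0.934%) and 91 cells (1.44%) passed the gate, a ratio of 1.54 (1.08 to 2.23). Of the barcodes that the libraries shared by sequence, 49 were called cells in both and 1 was gated in both.

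The label was checked by the number of the 8 genes a cell showed. With exactly 2 genes stood 87 vehicle and 123 LC427 cells, just inside the gate, of which 31 and 50 had Wdfy4 and Cbfa2t3 as their pair. With 3 or more genes stood 54 and 81 cells. In cells with 3 or more genes, Cst3, a protease inhibitor abundant in dendritic cells, stood at 22901 CPM (UMIs per 1000000 UMIs of the summed cells) with vehicle and 19010 CPM with LC427. In cells with 2 genes it was 5232 and 6830 CPM, and in the 625 and 781 called cells with 1 gene, just outside the gate, 1878 and 2353 CPM. The level of Irf8 was 820 and 781 CPM with 3 or more genes, 163 and 180 CPM with 2, and 162 and 174 CPM with 1. Zbtb46, a transcription factor of conventional dendritic cells, was at 47.0 and 25.4 CPM, then 8.66 and 8.90 CPM, then 1.70 and 3.19 CPM. Cells with 2 genes thus lay closer to the cells outside the gate than to those with 3 or more in Irf8.

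Macrophage genes ran the other way. C1qa, a subunit of complement C1q, was at 99.4 and 163 CPM in cells with 3 or more genes, and at 1145 and 872 CPM in cells with 2. Arg1, an arginine-degrading enzyme of tumour macrophages, was at 152 and 224 CPM against 1691 and 751 CPM. The summed level of 16 macrophage markers was 1425 and 2049 CPM with 3 or more genes, 9464 and 6007 CPM with 2, and 17694 and 13869 CPM in cells that showed at least 4 of 8 macrophage genes. Droplets with 10 to 100 UMIs, which hold free RNA, had 7506 and 6630 CPM of these markers. None of the 16 was at 0 in the gated cells. By these dendritic and macrophage genes alone the dendritic label held for the cells with 3 or more genes, while those with 2 carried both kinds together. B cell markers ran otherwise: 7 of them summed to 378 and 38.1 CPM with 3 or more genes. With 2 genes they summed to 65.8 and 16.0 CPM. Of 3 B cell markers measured, 2 were at least 2-fold higher in gated cells than in all other called cells in both libraries. Among all measured genes 176 of 7177 were. The median log2 ratio of the 3 to other cells was 3.91 with vehicle and 1.44 with LC427. The gate excluded no B cell gene, and whether B cells were among the gated cells was not tested.

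**Figure D1:**
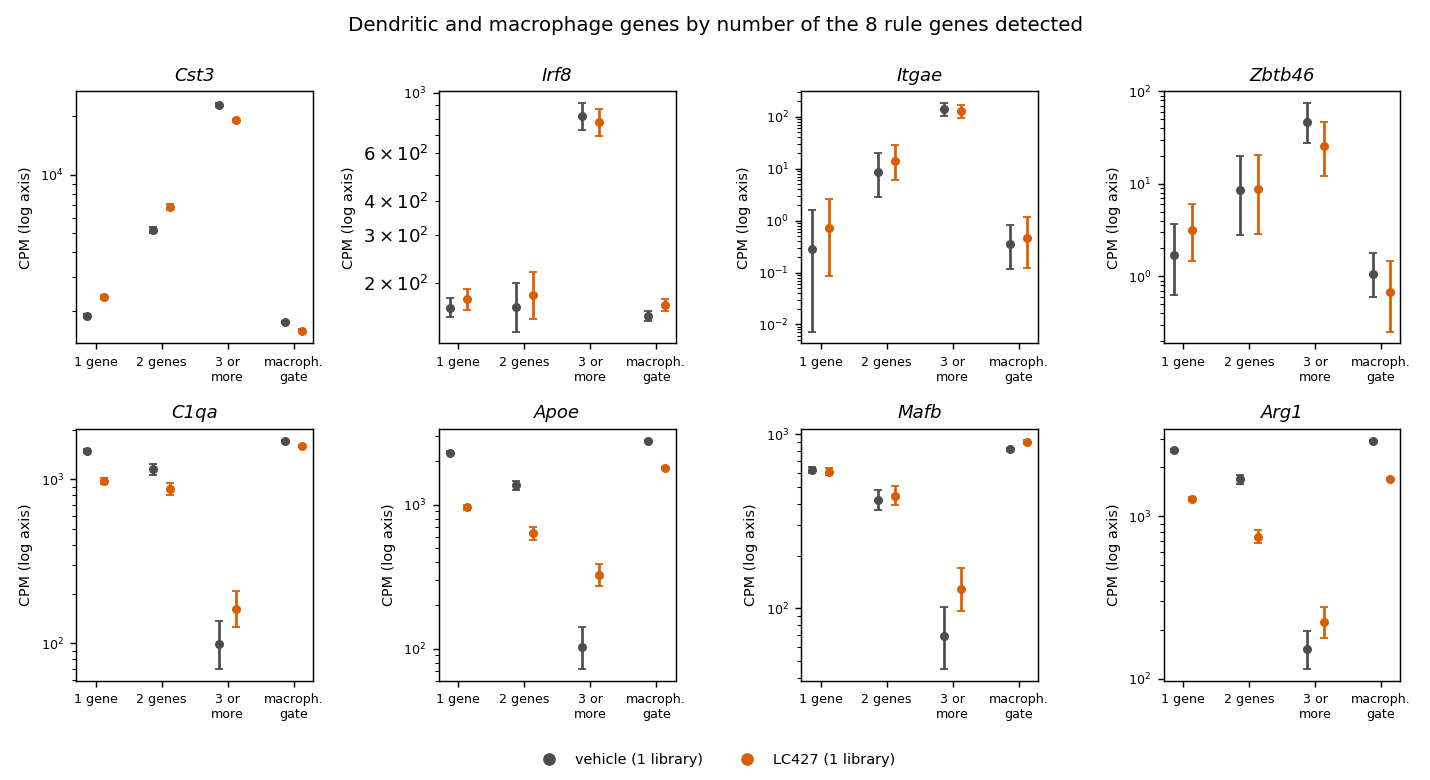
CPM (log axis) of 4 dendritic genes (upper row) and 4 macrophage genes (lower row) in called cells with 1, 2 or at least 3 of the 8 rule genes and in the macrophage gate. Points are 1 library each, and bars are 95% Poisson intervals. Dendritic genes are highest and macrophage genes lowest with 3 or more rule genes: C1qa there is at 99.4 and 163 CPM, against 1145 and 872 CPM with 2.

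The authors' deposited tables placed the dendritic types together. Their mean counts of Flt3, Xcr1, Clec9a, Plet1, Ccl17 and Wdfy4 were highest in cluster 12 of the vehicle library and in cluster 7 of the LC427 library. In the authors' deposited table the same clusters also had the highest Fscn1, a gene of mature dendritic cells, and Siglech, a gene of plasmacytoid cells. Ear2, a ribonuclease also found in monocytes, was highest elsewhere in the authors' deposited table, in cluster 4 with vehicle and cluster 10 with LC427.

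The gated cells were then split by subset markers. Cells with Xcr1 or Clec9a and neither Plet1 nor Ear2 numbered 25 with vehicle and 24 with LC427. Cells with Plet1 or Ear2 and neither Xcr1 nor Clec9a numbered 28 and 47. Both pairs were seen in 12 and 18 cells, and neither pair in 76 and 115. The first class made up 17.7% (11.8 to 25.05) and 11.8% (7.69 to 17.0) of gated cells, and the second 19.9% (13.6 to 27.4) and 23.04% (17.4 to 29.4), so the intervals of the libraries overlapped for each class. In T cells, which should lack these genes, Xcr1 was seen in 0.718% and 1.02%, Clec9a in 1.44% and 1.52%, and Plet1 in 1.29% and 2.80% of cells. The median depth of those T cells was 3450 and 2761 UMIs.

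Type 1 genes were highest in the cells that carried both marker pairs. These were also deeper, with medians of 8515.5 and 5972.5 UMIs, against 4246.5 and 3330 in Plet1 or Ear2 cells. After thinning, 1 and 3 cells carried both pairs. Macrophage markers summed to 234 and 2451 CPM in double-marked cells and to 8808 and 3032 CPM in Xcr1 or Clec9a cells. Irf8 was at 1425 CPM with vehicle and 1375 CPM with LC427 in double-marked cells. It was at 589 and 760 CPM in Xcr1 or Clec9a cells, and at 312 and 213 CPM in Plet1 or Ear2 cells. Naaa, a lysosomal amidase, was at 1575 and 1358 CPM, then 687 and 920 CPM, then 697 and 639.5 CPM. Itgae, the CD103 integrin chain, was at 263 and 239 CPM, then 98.2 and 87.7 CPM, then 50.9 and 60.9 CPM. Tlr3, the receptor for double-stranded RNA, was at 93.8 and 196 CPM, then 75.1 and 117 CPM, against 7.26 and 10.2 CPM in Plet1 or Ear2 cells. In the double-marked cells Plet1 was at 919 and 675 CPM while Ear2 was at 18.8 and 8.54 CPM. These levels are a description only, since Plet1 and Ear2 were used to choose the class. Plet1 also counted towards the dendritic gate and Ear2 did not, so no conclusion on a shared marker is drawn from them.

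Some type 2 genes were higher in Plet1 or Ear2 cells than in Xcr1 or Clec9a cells. Summed type 1 markers did not part these classes the same way in both libraries. The sum over 20 markers was 19165 and 17638 CPM in Plet1 or Ear2 cells and 14451 and 17926 CPM in Xcr1 or Clec9a cells. Ccl17, a chemokine for CCR4-bearing T cells, was at 2673 CPM with vehicle and 1548 CPM with LC427 in Plet1 or Ear2 cells. It was at 699 and 416 CPM in Xcr1 or Clec9a cells. The ratio of Xcr1 or Clec9a cells to Plet1 or Ear2 cells was 0.261 (0.211 to 0.322) with vehicle and 0.269 (0.199 to 0.358) with LC427. The lectin Mgl2 was at 894 and 629 CPM against 375 and 139 CPM, and the decoy receptor Il1r2 at 545 and 305 CPM against 75.1 and 65.7 CPM. Klrd1, the CD94 lectin-like receptor, which is not on the type 2 list, was at 145 and 152 CPM against 11.6 and 7.30 CPM. Cd209a, a lectin of type 2 cells, was at 123 and 25.4 CPM in Plet1 or Ear2 cells and had 0 UMIs in the other arm, where a count of 0 allows up to 17.3 and 21.9 CPM. H2-DMb2, a class II peptide-loading chain that is also not on the type 2 list, was at 189 and 178 CPM against 63.5 and 80.4 CPM.

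**Figure D2:**
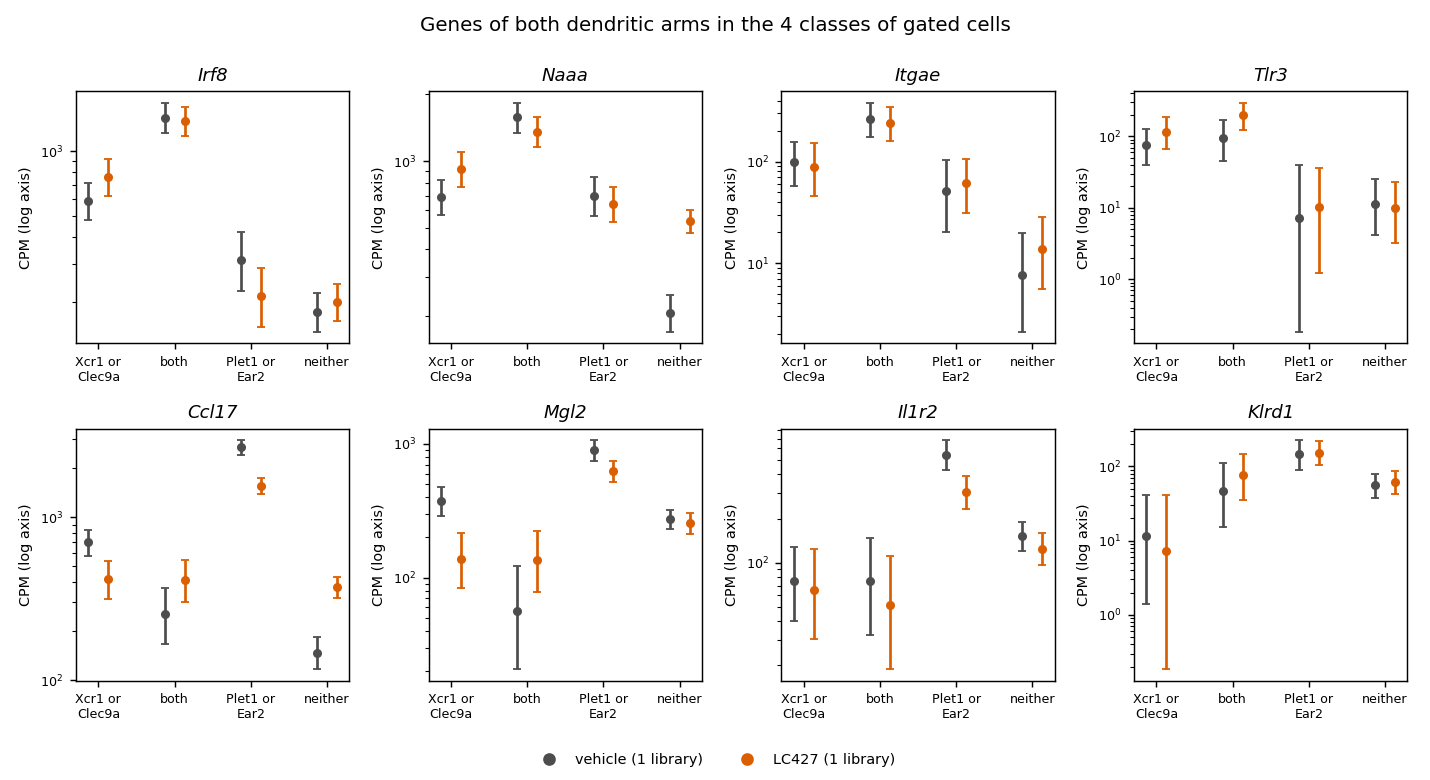
CPM (log axis) of 4 type 1 genes (upper row) and 4 genes higher in Plet1 or Ear2 cells (lower row), in cells with Xcr1 or Clec9a, with both pairs, with Plet1 or Ear2, and with neither. Points are 1 library each, and bars are 95% Poisson intervals. Irf8 is highest in cells with both pairs, at 1425 and 1375 CPM, and Ccl17 is highest in Plet1 or Ear2 cells, at 2673 and 1548 CPM.

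Of 3852 genes with at least 20 UMIs over both arms, 2.49% were at least 2-fold higher in Xcr1 or Clec9a cells in both libraries and 1.64% at least 2-fold lower. Among type 2 markers 4 of 14 measured genes were lower in Xcr1 or Clec9a cells by that rule and 0 higher. For type 1 markers 1 of 12 was higher and 0 lower, with the markers used to choose the cells left out. The macrophage markers had 5 of 15 higher. By the naming rule, the genes higher in Xcr1 or Clec9a cells were led by Ccl5, Thbs1, AW112010, Cxcl9 and C3. Of these, 3 changed direction under an alternative. With cells thinned, the log2 ratio was -0.25 for Ccl5 with LC427 and -0.12 for Cxcl9 with vehicle, and for Thbs1 with vehicle it was -0.20 over cells with 3 or more rule genes with double-marked cells counted with Xcr1 or Clec9a cells. Those of macrophages lay mostly in the cells with only 2 rule genes: C1qa stood at 1900 and 460 CPM in Xcr1 or Clec9a cells with 2 rule genes and at 336 and 197 CPM in those with 3 or more. Ccl5, a chemokine that attracts T cells, was at 664 and 234 CPM against 58.1 and 20.3 CPM in Plet1 or Ear2 cells. Cxcl9, a chemokine for CXCR3-bearing T cells, was at 1617 and 1198 CPM against 225 and 345 CPM. With 3 or more rule genes Cxcl9 stood at 1240 and 631 CPM in Xcr1 or Clec9a cells and at 250.5 and 393 CPM in Plet1 or Ear2 cells.

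Interferon genes were higher in gated cells of the LC427 library. Fold calls between the libraries were at least 1.5-fold over 7177 genes with at least 20 UMIs, of which 15.0% were higher with LC427 and 8.18% lower. Under median-of-ratios scaling 821 genes were higher and 784 lower, against 1074 and 587 here. The type I interferon response list had 14 of its 19 measured genes higher and 0 lower. Its median log2 ratio was 0.98, against 0.09 for all measured genes. The same 19 genes had a median of 0.17 in all other called cells, where over all measured genes 8.38% were higher and 7.77% lower. In gated cells with 3 or more rule genes 6 of 11 were higher and 0 lower, where 15.4% of all measured genes were higher, and the median was 0.91. With each cell thinned to 1000 UMIs before gating, 3 of these genes were still measured, with a median of 0.18.

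The summed list was higher as well. Summed over 22 type I interferon response genes, gated cells stood at 743 CPM with vehicle and 1289 CPM with LC427, and those with 3 or more rule genes at 735 and 1281 CPM. The macrophage gate stood at 1118 and 1424 CPM, and droplets of free RNA at 894 and 1203 CPM. At 1000 UMIs a cell, the mean over gated cells was 0.872 UMIs of the list with vehicle and 1.41 with LC427, and over all other called cells 1.06 and 1.41. Gated cells thus stood below the other cells with vehicle and level with them with LC427. Cells with at least 1 such UMI made up 50.4% and 58.3% of gated cells and 48.1% and 56.2% of other cells. The 5 gated cells richest in the list held 26.8% of its thinned UMIs with vehicle and 18.5% with LC427.

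The summed level of the list was higher with LC427 in each of the 4 marker classes, with few cells carrying the smaller ones. It was 988 and 1687 CPM in Xcr1 or Clec9a cells, 478 and 1332 CPM in double-marked cells, 538 and 761 CPM in Plet1 or Ear2 cells and 770 and 1377 CPM in unmarked cells. Plet1 or Ear2 cells thus had the smallest ratio of these 4, and whether the classes differ was not tested. With each gated cell thinned to 1000 UMIs, the share with a UMI of the list was 60.0% with vehicle and 62.5% with LC427 in Xcr1 or Clec9a cells and 57.9% and 63.5% in unmarked cells. It was 33.3% and 50% in the 12 and 18 double-marked cells and 28.6% and 46.8% in Plet1 or Ear2 cells. The median Xcr1 or Clec9a cell held 1 such UMI in both libraries. The 5 richest cells held 75.6% of the list's thinned UMIs in LC427 Xcr1 or Clec9a cells and 81.0% in LC427 double-marked cells.

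Isg15, a ubiquitin-like antiviral modifier, was at 86.2 CPM with vehicle and 179 CPM with LC427, a ratio of 2.08 (1.58 to 2.74). Its ratio was 2.19 (1.45 to 3.38) with 3 or more rule genes and 1.06 in all other called cells. After thinning, 7.80% and 14.2% of gated cells had an Isg15 UMI, against 5.03% and 5.21% of T cells; without thinning the gated shares were 33.3% and 28.9%, an order opposite to that of the CPM. Zbp1, a sensor of left-handed nucleic acid, was at 60.7 and 109 CPM, a ratio of 1.79 (1.29 to 2.52), against 1.09 in other cells. Oasl2, of the oligoadenylate synthetase family, was at 20.2 and 46.1 CPM, a ratio of 2.28 (1.30 to 4.13), against 1.20. Xaf1, which binds the apoptosis inhibitor XIAP, had 18 and 47 UMIs, a ratio of 2.57 (1.46 to 4.70), against 1.25. Ifit1 and Oas3, sensors of viral RNA, had 3 and 17 UMIs and 2 and 18 UMIs, against ratios of 1.16 and 1.02 in other cells. The nucleic acid sensors Ifi204 and Ifi207 were also higher outside the gate, with ratios of 2.49 and 1.93 in gated cells and 2.06 and 2.91 in other cells. Not all of the list did so: Rsad2, the antiviral enzyme viperin, had 16 and 13 UMIs, and Bst2, the virus tether tetherin, was at 219 and 251 CPM, a ratio of 1.15 (0.947 to 1.39). Genes driven by interferon gamma had 10 of 19 higher and 0 lower, with a median of 0.67 against 0.24 in other cells and 0.26 in cells with 3 or more rule genes, where 5 of 13 were higher and 2 lower. Among them the immunity GTPase Igtp was at 31.9 and 69.1 CPM, a ratio of 2.16 (1.39 to 3.45), while Cxcl9 was at 760 and 651 CPM.

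The promoters of these genes, and of class II genes that did not share the difference, are shown to let their best known elements be read. The stretches are the 200 bases before the RefSeq start in GRCm38.p6, 5′ to 3′ on the gene's strand, with each match in capitals. For Isg15, Ifit3 and Rsad2 the capitals mark the core of the interferon-stimulated response element (GAAA, then any 2 bases, then GAAA) on either strand. For H2-Aa and H2-Eb1 they mark CTGATTGG, a Y box, also on either strand. The 3 matches in Isg15 overlap.
Isg15, chr4:156200819-156201018, minus strand: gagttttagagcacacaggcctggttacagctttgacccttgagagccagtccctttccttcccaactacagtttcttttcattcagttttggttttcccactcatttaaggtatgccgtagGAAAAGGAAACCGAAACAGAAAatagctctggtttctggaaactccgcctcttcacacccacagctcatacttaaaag
Ifit3, chr19:34583329-34583528, plus strand: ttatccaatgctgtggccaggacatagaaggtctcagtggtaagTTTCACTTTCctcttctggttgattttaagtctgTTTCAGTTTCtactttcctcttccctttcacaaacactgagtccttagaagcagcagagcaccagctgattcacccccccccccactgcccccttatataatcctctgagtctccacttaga
Rsad2, chr12:26456453-26456652, minus strand: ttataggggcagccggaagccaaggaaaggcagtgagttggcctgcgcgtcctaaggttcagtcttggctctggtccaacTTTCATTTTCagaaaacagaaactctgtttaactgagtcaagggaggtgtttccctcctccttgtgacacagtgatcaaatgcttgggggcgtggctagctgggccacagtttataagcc
H2-Aa, chr17:34287824-34288023, minus strand: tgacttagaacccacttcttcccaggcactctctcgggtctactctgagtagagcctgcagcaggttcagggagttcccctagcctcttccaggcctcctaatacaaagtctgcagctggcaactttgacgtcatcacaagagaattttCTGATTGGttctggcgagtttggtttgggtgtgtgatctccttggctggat
H2-Eb1, chr17:34305667-34305866, plus strand: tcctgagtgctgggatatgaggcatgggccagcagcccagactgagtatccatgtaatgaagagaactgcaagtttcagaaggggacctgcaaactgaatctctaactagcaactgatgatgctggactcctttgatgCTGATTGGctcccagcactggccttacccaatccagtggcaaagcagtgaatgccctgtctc
Over the full 300-base promoters, which reach 50 bases past the start, that core was in 9 of the 17 type I interferon response genes that had one in the table, against 3.99% of all 27025 genes with a promoter (3.44% of 32851 promoters). It was in 11 of 13 interferon gamma response genes and in 1 of 11 class II genes with a promoter. The Y box was in 4 of those 11 and in 4.70% of all genes. Rsad2 holds a match in the stretch shown although its ratio was not past 1.5-fold upward, and a match is a description of letters only.

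**Figure D3:**
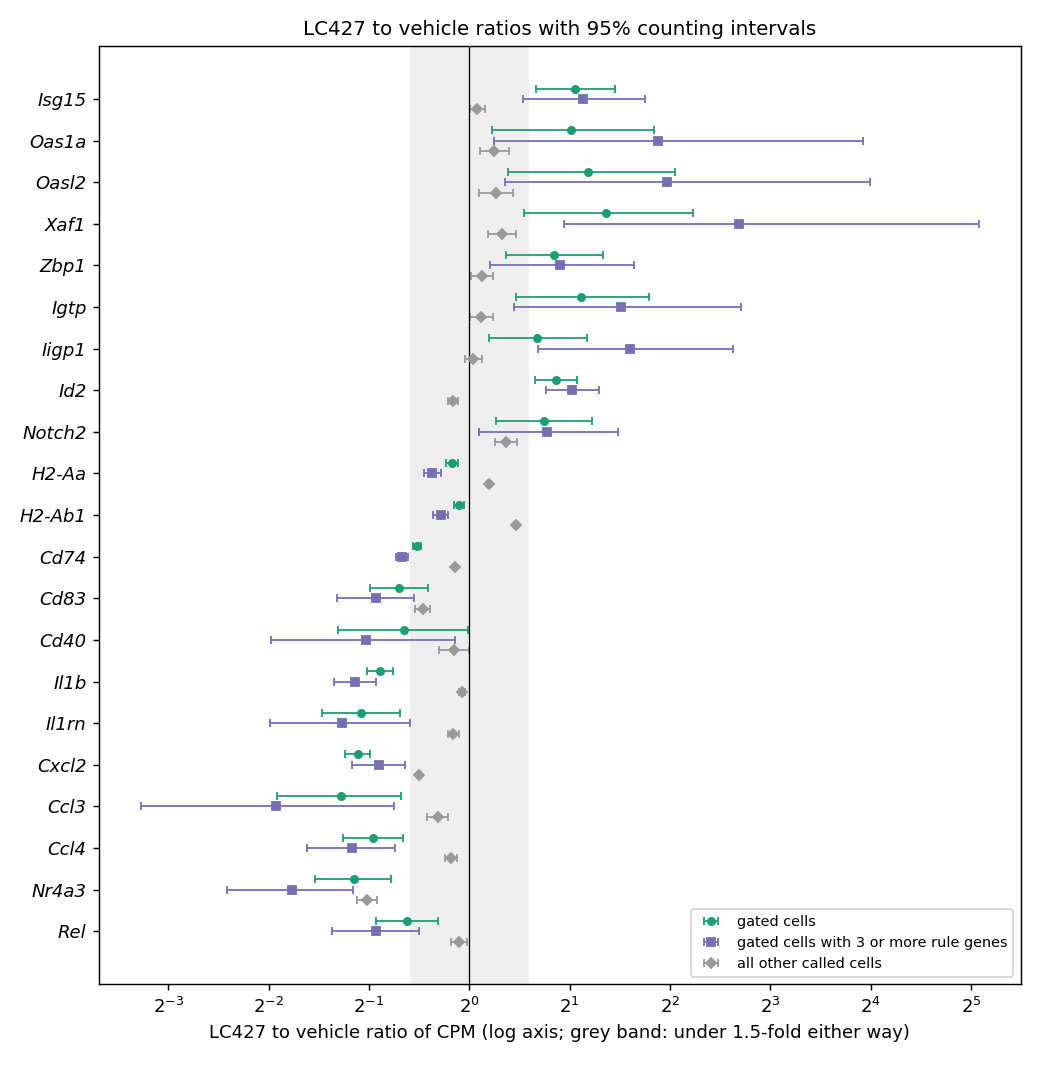
Ratio of CPM, LC427 to vehicle (log axis), for 21 genes in gated cells, in gated cells with 3 or more rule genes and in all other called cells, with 95% counting intervals. The grey band is under 1.5-fold. Isg15 stands at 2.08 in gated cells and 1.06 in other cells, and Il1b at 0.540 and 0.948.

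Antigen presentation genes did not follow the interferon genes. The class II chains H2-Aa and H2-Ab1 were at 5477 and 6875 CPM with vehicle and at 4852 and 6414 CPM with LC427, ratios of 0.886 (0.851 to 0.922) and 0.933 (0.901 to 0.966). In all other called cells the same ratios were 1.15 and 1.38. Cd74, the invariant chain that guides class II molecules, was at 12553 and 8734 CPM, a ratio of 0.696 (0.676 to 0.716), with 0.630 in cells with 3 or more rule genes and 0.905 in other cells. Of 11 measured class II genes 1 was past 1.5-fold upward and 0 downward, against 15.0% and 8.18% of all measured genes. The class II median was -0.10, against 0.42 in other cells. The 1 was Ciita, the class II transactivator, at 102 and 162 CPM, a ratio of 1.59 (1.22 to 2.07), and 1.73 in other cells. The class II pattern was not particular to the gated cells. Mature dendritic cells outside the gate, with at least 2 of Fscn1, Cacnb3 and Ccr7 and no Cd3d, Cd3e or Ncr1, had a median of -0.19. Of their 11 measured class II genes 0 were higher and 1 lower. Class I and cross-presentation genes of gated cells had 1 of 22 higher and 3 lower, beside 15.0% and 8.18% of all measured genes. The class I median was -0.05.

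Of the ligands that T cells read, 1 of 14 measured was higher with LC427 and 4 lower. Over all measured genes 15.0% were higher and 8.18% lower. The ligand median was -0.21. It turned to 0.02 without the gated cells that showed at least 2 macrophage genes. When cells were thinned it turned to 0.11, over 3 genes. The CTLA4 and CD28 ligands were not past 1.5-fold: Cd80 was at 39.4 and 34.5 CPM, a ratio of 0.877 (0.532 to 1.44), and Cd86 at 110 and 109 CPM, a ratio of 0.993 (0.749 to 1.32). Cd83, an activation marker, was at 274 and 169 CPM, a ratio of 0.616 (0.503 to 0.753), against 0.724 in other cells. Pdcd1lg2, the PD-1 ligand PD-L2, was at 54.3 and 23.03 CPM, a ratio of 0.424 (0.245 to 0.712), against 0.451. Icosl, the ICOS ligand, was the 1 higher, at 11.7 and 30.4 CPM with a ratio of 2.59 (1.26 to 5.75), against 1.56. In cells with 3 or more rule genes 6 of 11 were lower and 1 higher, where 12.5% of all measured genes were lower, and Cd40, the receptor for T cell help, had a ratio of 0.489 (0.255 to 0.907). Markers of the mature regulatory state overlap with these ligands, and Cd83, Cd40 and Cd274 are in both lists. Of 13 mature markers measured in gated cells 4 were lower and 1 higher, with a median of -0.42 that turned to 0.56, over 6 genes, when cells were thinned before gating. Of 11 measured in cells with 3 or more rule genes 8 were lower and none higher (0). Their log2 ratios had a median of -0.80, and in all other called cells 0 of 16 were lower. In the macrophage gate 5 of 15 were lower and 1 higher, with a median of -0.33. In gated cells with 3 or more rule genes Traf1, a TNF receptor adaptor, had 58 and 27 UMIs, a ratio of 0.429 (0.261 to 0.688). The chemokine Ccl22 had 40 and 19 UMIs in the same cells, a ratio of 0.437 (0.239 to 0.773). Cells with a UMI of Fscn1 or Cacnb3 were kept out of the gate, but some gated cells were still rich in mature markers. Among unmarked cells the highest held 12762 CPM with vehicle and 12684 CPM with LC427, against medians of 598 and 550 CPM. In Xcr1 or Clec9a cells the highest held 3279 and 11920 CPM, and in Plet1 or Ear2 cells 2701 and 7802 CPM. In double-marked cells the highest held 4405 and 3947 CPM. The part of cells rich in mature markers in these sums was not tested. With 3 or more rule genes, Xcr1 or Clec9a cells (double-marked cells included) had 6 of 7 mature markers lower and 1 higher. Their median was -1.45, and 348 of all 2524 measured genes were lower. Plet1 or Ear2 cells had 0 of 2 lower, with a median of -0.16. Lrba itself had 28 and 20 UMIs in gated cells, a ratio of 0.702 (0.375 to 1.29).

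Several inflammatory cytokines and chemokines were lower in gated cells of the LC427 library: of 18 measured chemokines 6 were lower and 0 higher, and of 9 cytokines 4 were lower and 2 higher. Over all measured genes 8.18% were lower and 15.0% higher. With 3 or more rule genes 7 of 15 chemokines were lower and 2 higher, where 12.5% of all measured genes were lower and 15.4% higher. Il1b, the cytokine interleukin-1 beta, was at 1463 and 790 CPM, a ratio of 0.540 (0.494 to 0.591), with 0.454 in cells with 3 or more rule genes and 0.948 in other cells. Its antagonist Il1rn was at 185 and 87.9 CPM, a ratio of 0.475 (0.361 to 0.619), against 0.896. The neutrophil attractant Cxcl2 was at 1777 and 822 CPM, a ratio of 0.463 (0.424 to 0.504), against 0.706. The chemokine Ccl3 was at 84.1 and 34.6 CPM and Ccl4 at 286 and 148 CPM. The chemokine median log2 ratio was -0.31 in gated cells and -0.48 in other cells. It turned to 0.44, over 8 genes, when cells were thinned to 1000 UMIs before gating, and the log2 ratio of Cxcl2 then became 0.042. Lower chemokines were not particular to the gated cells. In mature dendritic cells outside the gate 10 of 15 were lower and 0 higher, where 1179 of all 9189 measured genes were lower. Their chemokine median was -1.07. In the macrophage gate 10 of 18 were lower and 1 higher, where 760 of all 11726 measured genes were lower, and the chemokine median was -0.62. Over all gated cells Ccl17 was at 631 and 625 CPM, but its classes went opposite ways. It was lower with LC427 in Plet1 or Ear2 cells and in Xcr1 or Clec9a cells, as given above, and higher in double-marked cells, at 253 and 410 CPM, and in unmarked cells, at 148 and 371 CPM. Ccl24 counts came mostly from 1 vehicle cell, which held 70 of 110 UMIs.

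Among transcription factors 2 of 25 were higher and 3 lower in gated cells, where 15.0% of all measured genes were higher and 8.18% lower. In those with 3 or more rule genes 5 of 23 were higher and 7 lower, where 15.4% of all measured genes were higher and 12.5% lower. Id2, an inhibitor of DNA binding needed for type 1 cells, was at 320 and 583 CPM, a ratio of 1.82 (1.58 to 2.10), with 2.04 (1.69 to 2.46) in cells with 3 or more rule genes and 0.895 in other cells. Id2 was higher with LC427 in all 4 classes: 306 and 599 CPM in Xcr1 or Clec9a cells, 685 and 1307 CPM in double-marked cells, 429 and 650 CPM in Plet1 or Ear2 cells and 222 and 385 CPM in unmarked cells. After thinning, 24.1% and 39.2% of gated cells had an Id2 UMI, against 57.4% and 71.6% without thinning; T cells, which express Id2, had 30.3% and 39.0% after thinning. The receptor Notch2 was at 63.9 and 107 CPM, a ratio of 1.67 (1.20 to 2.34), against 1.29. The activation factors Nr4a3 and Rel were lower, at 200.1 and 90.0 CPM and at 240 and 156 CPM, ratios of 0.450 (0.344 to 0.584) and 0.651 (0.526 to 0.805), against 0.494 and 0.931 in other cells. Irf8 was at 416 and 427 CPM and Batf3 at 77.7 and 90.0 CPM, neither past 1.5-fold.

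Some further differences were larger in gated cells than in all other called cells. Others rested on few cells or were seen in all cells. Kit, the stem cell factor receptor, was at 41.5 and 109 CPM, a ratio of 2.62 (1.80 to 3.89), against 0.805 in other cells, and 3.55% and 12.3% of gated cells had a Kit UMI after thinning, against 1.58% and 1.91% of T cells. Without thinning the gated shares were 18.4% and 25.98%. Ly6c2, a monocyte surface gene, was at 58.6 and 169 CPM, a ratio of 2.88 (2.11 to 3.98), against 0.981 in all other called cells. Its ratio was also above 1 in the macrophage gate, at 1.76 (1.55 to 1.99), and in droplets of free RNA, at 1.58 (1.33 to 1.88). The summed monocyte markers were 1909 and 2028 CPM, or 925 and 1462 CPM with 3 or more rule genes. All Tpsb2 and Mcpt4 UMIs of gated cells, 132 and 48, came from 1 LC427 cell, and both genes are mast cell proteases. Of 135 Gzma UMIs with vehicle, 90 came from 1 cell. Gapdh, a glycolytic enzyme, was at 1779 and 776 CPM, a ratio of 0.436 (0.399 to 0.476), and 0.455 in other cells. Of 18 glycolysis and hypoxia genes 8 were lower and 0 higher, where 8.18% of all measured genes were lower and 15.0% higher. The median of this list was -0.51 against -0.35 in other cells. Macrophage markers had 8 of 16 lower in gated cells and 6 of 15 higher in cells with 3 or more rule genes, medians of -0.50 and 0.56. With cells thinned before gating the median was 1.30 over 7 genes. Spp1, a macrophage secreted protein, was at 579 and 259 CPM in gated cells and at 113 and 109 CPM with 3 or more rule genes. Uptake receptors had 7 of 10 higher and 0 lower in cells with 3 or more rule genes, where 15.4% of all measured genes were higher and 12.5% lower. Over all gated cells 1 of 14 was higher and 2 lower, beside the 15.0% and 8.18% above. The Fc receptor Fcgr4 had 3 and 27 UMIs in cells with 3 or more rule genes and the scavenger receptor Stab1 6 and 24 UMIs. The part of macrophage RNA in the gated cells' differences was not tested. In these sums, fewer cells with a gene and less RNA of it per cell cannot be told apart.

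**Figure D4:**
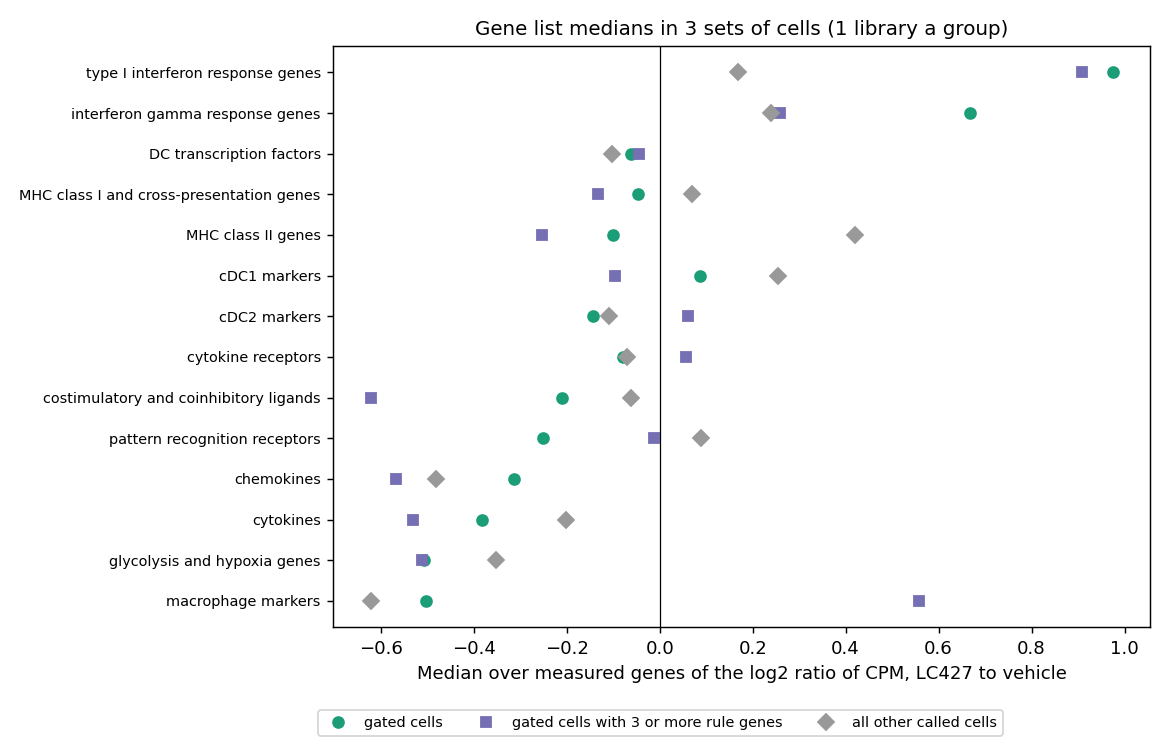
Median over measured genes of the log2 ratio of CPM, LC427 to vehicle, for 14 gene lists in gated cells, in those with 3 or more rule genes and in all other called cells. Type I interferon response genes are at 0.98 and 0.91 in the gated sets and at 0.17 in other cells, and class II genes are at -0.10 and -0.25 against 0.42.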

How the data were processed

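Single-cell 5′ RNA was measured in 2 libraries, 1 per group. The authors deposited UMI count matrices of all barcodes (Cell Ranger 4 per the file headers; Cell Ranger 3.0.1, Seurat 3 and GRCm38 per the submitters' processing notes), with 33711726 UMIs for vehicle and 28732435 for LC427. The authors' deposited tables per cluster, normalised by the authors, hold mean counts, log2 fold changes and p-values, of which the mean counts were used. Members, classes and gene lists were chosen with earlier results of these data known, and the split by number of rule genes and the double-marked cells' place were set after seeing the data. Raw counts were summed per class and library (numpy 2.4.6, scipy 1.17.1) and given as CPM. Intervals are 95%: exact Poisson for CPM, exact conditional binomial for ratios and Clopper-Pearson for shares, and cover counting error only. There was no test, since each group is 1 library. Folds against 0 use a floor of 3 counts. Lists leave out the genes that chose the cells. Genes were named by rule: at least 50 CPM in the higher group and past 1.5-fold between treatments or 2-fold in both libraries between arms, ranked by the interval bound nearest 1, up to 12 each way; any listed gene could also be named. Calculations were tested on simulated data. Scrublet (scanpy 1.11.5) called 0 doublets in each library, so none were removed. Alternatives changed the cell filters, gate, scaling, weighting and count minimum.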

Additional observations from a re-analysis of the deposited data

Results flagged for a closer look

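Between cells with 3 or more rule genes, 2 genes differed in opposite directions by LC427 in the arms. Mgl2, a lectin of type 2 cells, had 9 UMIs with vehicle and 23 with LC427 in Xcr1 or Clec9a cells (double-marked cells included), a ratio of 2.57 (1.15 to 6.31). In Plet1 or Ear2 cells it had 79 and 52 UMIs, a ratio of 0.482 (0.333 to 0.693). Sirpa, an inhibitory receptor of type 2 cells and macrophages, had 7 and 19 UMIs, a ratio of 2.73 (1.10 to 7.68), against 23 and 15 UMIs, a ratio of 0.478 (0.232 to 0.955). The difference between the arms was not tested, since each group is 1 library, and summed counts are small. Both genes were picked from all listed and named genes with at least 20 UMIs in each arm. They were kept because their intervals left out 1 in opposite directions. How many such genes counting error alone would give was not tested. Without the limit to 3 or more rule genes, Mgl2 was lower with LC427 in both arms. In Xcr1 or Clec9a cells (double-marked cells included) it was then at 254 CPM with vehicle and 138 CPM with LC427. In Plet1 or Ear2 cells it was at 894 and 629 CPM. The opposite direction of Mgl2 was thus seen only in the subset with 3 or more rule genes.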

How the results depend on the processing

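No paired analysis was possible because each group is 1 library. Of 1196 values under alternatives, 1007 stayed within their limit. The ratio of gated shares was 1.54 with cells thinned to 1000 UMIs. Genes higher with LC427 numbered 674 with 3 of 8 rule genes, 423 with at least 50 UMIs, 152 when thinned and 2954 with no count minimum; those lower were 253, 138 and 2622 under the last 3. Genes higher in Xcr1 or Clec9a cells numbered 38, 7 and 421 under the same 3. Genes higher in Plet1 or Ear2 cells numbered 13, 13 and 335, and 37 with 3 rule genes. Counting double-marked cells with Xcr1 or Clec9a cells made these 47.2% of both arms with LC427; with 3 rule genes as well, 53.3%, and 65.0% with vehicle. Of 25 gene list medians between treatments, 8 kept their sign under each alternative that gave one, among them both interferon lists, class II genes, cytokines and glycolysis genes, and 17 changed sign under at least 1. When thinned, chemokines went from -0.31 to 0.44, macrophage markers from -0.50 to 1.30, mature dendritic markers from -0.42 to 0.56 and ligands read by T cells from -0.21 to 0.11. Type I interferon genes ranged from 0.18 to 1.01. Log2 ratios of single genes changed sign as follows. When thinned, Cxcl2 between treatments was 0.042; between arms with LC427, Actn1 was 0.88, Ccl5 -0.25 and Cdh1 0.14; with vehicle, Cxcl9 was -0.12, Fth1 -0.79, Ifitm1 0.51 and Lyz2 -1.40. Without members showing macrophage genes, Spp1 was 0.55 between treatments and -0.76 between arms with LC427. With double-marked cells moved and 3 rule genes, vehicle arm values were 0.65 for 1700025G04Rik, -0.11 for Prdx5, -0.79 for Spp1 and -0.20 for Thbs1. Thinned sums and stricter minimums hold fewer counts or genes; other causes were not tested. Median gated depth, 6063 against 3426.5 UMIs, limits the smaller classes most.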

Other observations

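Cells that met at least 2 rule genes but also showed one of the 6 excluded genes numbered 146 with vehicle and 144 with LC427. Their median depth was 7078.5 and 5020 UMIs, above that of the gated cells. The gated vehicle cells with 3 or more rule genes held 378 CPM of 7 B cell markers, against 38.1 CPM with LC427. Gated cells with 2 rule genes held 65.8 and 16.0 CPM, and the macrophage gate 58.9 and 14.6 CPM. Droplets of free RNA held 397 and 116 CPM. By marker class, gated vehicle cells held 308 CPM in unmarked cells and 46.2 CPM in Xcr1 or Clec9a cells. Double-marked vehicle cells held 46.9 CPM and Plet1 or Ear2 vehicle cells 7.26 CPM. The source of this RNA in the gated cells was not tested.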
